A study of Mus musculus with 3 samples.

Results

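The BCL2 family decides whether a stressed lymphocyte keeps its mitochondria intact. The survival proteins (BCL2, BCL-XL from Bcl2l1, MCL1 and the A1 proteins from the Bcl2a1 genes) hold the effectors BAX and BAK1 in check, and the BH3-only proteins (BIM from Bcl2l11, PUMA from Bbc3 and NOXA from Pmaip1) release them when a cell loses its growth signals or takes damage. In T cells, IL-7 acting through its receptor Il7r is known to keep Bcl2 on, while antigen stimulation is known to raise the A1 genes and Bcl2l1. The 10 members described here were those genes, 10 of the 32285 genes counted, and they were chosen by name. They were followed across cell classes that were themselves set by raw counts of lineage genes, so no member helped to choose the cells.

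The cells were live CD45+ leukocytes sorted from the dispersed islets of adult female wild-type NOD mice, the strain that develops autoimmune diabetes spontaneously. There were 3 libraries of one group, each from pooled mice, and no treatment or genotype was compared, so every comparison below is between cell classes within the same mice. The libraries held 5844, 9537 and 11566 cells with median depths of 4230, 6415 and 5521 UMIs (unique molecular identifiers, each standing for 1 captured transcript). Cells with at least 1000 UMIs and under 10% mitochondrial UMIs were kept, which left 26142 of 26947.

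CD8+ T cells had Cd3e, at least 2 UMIs of Cd8a and Cd8b1 together and no Cd4 (3258 cells). CD4+ T cells had Cd3e and Cd4 without Cd8a, Cd8b1 or Foxp3 (5858 cells), and Treg cells had Cd3e and Foxp3 (1671 cells). B cells had at least 2 Cd79a UMIs and no Cd3e (4936 cells), and macrophages had at least 5 UMIs of C1qa and C1qb together, no Cd3e and at most 1 Cd79a UMI (68 cells, of which library 2 gave 10). CD8 and Treg classes shared 59 cells, and no other pair shared any. A level is given as CPM, counts per 1000000 UMIs summed over the cells of a class in a library, as mean ± SD over the 3 libraries. In such sums, fewer cells that carry a transcript and fewer transcripts per cell cannot be told apart.

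Marker genes set T cells, B cells and macrophages apart. Those that would tell the CD8+, CD4+ and Treg classes from each other are not reported here. The summed level of Cd3d, Cd3g, Trac, Trbc2 and Lck, none of them used by the rules, was 3229 to 4501 CPM in the T cell classes, 132 to 157 in B cells and 0 to 39.6 in macrophages. The 6 B cell markers, among them the gating gene Cd79a, summed to 4068 to 6240 CPM in B cells, and to 185 to 1551 CPM in T cells, so B cell RNA was present in the T cell sums. The 8 macrophage markers, which include the gating genes C1qa and C1qb, summed to 14458 to 23041 CPM in macrophages and to 16.7 to 210.2 CPM elsewhere, and endocrine transcripts (Ins1, Ins2, Iapp and Gcg) summed to 1356 CPM in the macrophages of library 3. Library 1 stood apart from the others in T cells. Its 3 cycling markers (Mki67, Top2a and Stmn1) summed to 498 to 752 CPM in T cells against 52 to 107 in libraries 2 and 3, and its Bcl2a1b level was 1.91 to 2.38 times the mean of the other two. All tests below compared classes within libraries (edgeR quasi-likelihood with the library as a block, Benjamini-Hochberg adjustment over all genes tested), so a shift shared by the classes of a library does not enter them. The Bcl2a1b shift of library 1 was smaller in B cells (1.13 times the mean of the others) and macrophages (1.29 times). The block does not remove such an unshared part from tests of these classes against T cells.

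Promoter sequence of 3 members is shown first, since the A1 pair is hard to tell apart by sequence and Bcl2l11 was higher in B than in T cells and higher with Il7r in CD8+ and CD4+ T cells. Bcl2a1b and Bcl2a1d are near copies on chromosome 9, with Bcl2a1a between them, 224985 bases from Bcl2a1d and 236789 bases from Bcl2a1b. Their GENCODE transcripts were 99.1% identical over 817 aligned bases. A read of 90 bases, a length set here and shorter than the reads the study names, could not tell the copies apart at every position. This held for 36.1% of the positions of Bcl2a1b and 61.6% of those of Bcl2a1d (34.1% and 60.8% in the last 400 bases). Their split of UMIs is therefore uncertain and they are best read as a pair. Counts of called members below take them as 2 genes, so a count that holds both rests partly on 1 pair. The promoter windows (GRCm38.p6, RefSeq) end before both the RefSeq and the GENCODE gene start. Capitals mark GAGGAAG, a core bound by ETS factors such as PU.1. It is present as 2 overlapping copies in Bcl2a1b (chr9:89199023-89199208, plus strand) and 1 copy in Bcl2a1d (chr9:88731915-88732100, minus strand).
Bcl2a1b: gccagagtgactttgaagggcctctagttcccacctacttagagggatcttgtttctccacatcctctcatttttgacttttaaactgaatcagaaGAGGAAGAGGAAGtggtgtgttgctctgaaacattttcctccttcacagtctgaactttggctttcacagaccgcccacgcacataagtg
Bcl2a1d: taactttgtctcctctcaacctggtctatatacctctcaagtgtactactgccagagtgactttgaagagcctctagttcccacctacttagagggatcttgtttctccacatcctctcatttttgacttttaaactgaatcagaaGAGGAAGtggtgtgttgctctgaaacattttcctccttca
The 2 windows were 95.1% identical over 142 aligned columns. In the Bcl2l11 window (chr2:128125788-128126037, plus strand), capitals mark GTAAACA, the core bound by FOXO factors, which begins 227 bases before the window's end.
Bcl2l11: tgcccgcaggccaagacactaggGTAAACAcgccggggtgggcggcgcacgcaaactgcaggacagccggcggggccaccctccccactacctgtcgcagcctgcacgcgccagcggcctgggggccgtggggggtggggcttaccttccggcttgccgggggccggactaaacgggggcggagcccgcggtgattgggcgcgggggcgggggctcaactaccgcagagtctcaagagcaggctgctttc
For motif counts, uncut promoter windows that run past the RefSeq gene start were searched on both strands. GAGGAAG was in the windows of Bak1, Bcl2, Bcl2a1b and Bcl2a1d and in 13.6% of 32851 such windows of all genes. GTAAACA was in those of Bbc3 and Bcl2l11 and in 3.65% of all windows. The STAT core TTCNNNGAA was in 8.3% of all windows and in none of the 14 windows of 9 members searched. These are matches of letters, not sites shown to be bound.

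Among the survival genes, Bcl2 (ENSMUSG00000057329, chr1:106538178-106714274, minus strand) is the founding member and the one that IL-7 maintains. Its level was 51.6, 49.8 and 45.4 CPM in CD8+ T cells of libraries 1, 2 and 3, and 71.1, 42.0 and 38.3 in CD4+ T cells. Treg cells had 33.5, 39.0 and 40.4 CPM, B cells 45.6, 35.2 and 31.0, and macrophages 15.9, 15.9 and 16.5. By means the order ran CD4+ T (50.5 ± 18), CD8+ T (48.9 ± 3.19), Treg (37.6 ± 3.66), B (37.3 ± 7.48) and macrophage (16.1 ± 0.362). Only the macrophages lay below every other class in every library, and their value rests on 9 UMIs (95% Poisson interval of the pooled level 7.37 to 30.6 CPM, counting error only).

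Bcl2l1 (ENSMUSG00000007659, chr2:152780668-152831728, minus strand), whose BCL-XL product is induced in activated cells, had another order among lymphocytes. Treg cells had 18.3, 28.5 and 21.7 CPM, all above the 11, 15.2 and 13.4 of CD8+ T cells and the 12.2, 12.8 and 12.6 of CD4+ T cells. B cells were lowest, at 3.13, 4.83 and 3.78 CPM, with no overlap with any T cell class. Macrophages spread from 10.6 through 23.8 to 53.6 CPM on 18 UMIs in all, so their place in the order is not settled.

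Mcl1 (ENSMUSG00000038612, chr3:95658788-95663176, plus strand) encodes a short-lived survival protein that most leukocytes need. It varied little between lymphocytes: 307 ± 3.33 CPM in CD8+ T cells, 359 ± 28.0 in CD4+ T cells, 360.2 ± 16.7 in Treg cells and 391 ± 15.2 in B cells. Macrophages had 1300, 634 and 1137 CPM, above every lymphocyte class in every library.

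The A1 genes, Bcl2a1b (ENSMUSG00000089929, chr9:89199209-89207827, plus strand) and Bcl2a1d (ENSMUSG00000099974, chr9:88723285-88731914, minus strand), are NF-kB targets of activated lymphocytes and myeloid cells. Bcl2a1b was at 1808, 1538 and 1273 CPM in macrophages, against 337, 142 and 141 in CD8+ T cells, 362, 153 and 152 in CD4+ T cells and 357, 201 and 174 in Treg cells. B cells had the lowest level in each library, 138, 126 and 118 CPM. Within each T cell class, library 1 was far above the other two, and within a library the T cell classes were close. Bcl2a1d kept the macrophages on top (566, 1054 and 610 CPM), with means of 139 ± 14.7 in Treg cells, 135 ± 36.9 in CD4+ T cells, 114 ± 40.5 in CD8+ T cells and 92.0 ± 17.1 in B cells. Every B cell library lay below all those of Treg and CD4+ T cells, while the ranges of B and CD8+ T cells overlapped, as did those of the 3 T cell classes.

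The effectors differed less. Bax (ENSMUSG00000003873, chr7:45461697-45466898, minus strand) was at 119 ± 43.1 CPM in CD8+ T cells, 124 ± 36.0 in CD4+ T cells, 139 ± 36.6 in Treg cells, 138 ± 16.9 in B cells and 214 ± 30.5 in macrophages, and library 1 was the highest in all but the macrophages. Bak1 (ENSMUSG00000057789, chr17:27019810-27029009, minus strand) was at 24.3, 29.0 and 26.2 CPM in Treg cells, above the 16.9, 17.1 and 18.8 of CD4+ T cells. CD8+ T cells had 20.8 ± 2.36 CPM, B cells 17.7 ± 0.346 and macrophages 24.1 ± 7.94 on 13 UMIs, ranges that overlapped with those of their neighbours.

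The BH3-only genes had 3 different orders. Bcl2l11 (ENSMUSG00000027381, chr2:128126038-128162547, plus strand), whose BIM product kills lymphocytes that are deprived of cytokine or react with self, was highest in B cells, with 427, 391 and 382 CPM. Macrophages followed with 365, 277 and 301 CPM, and CD8+ T, Treg and CD4+ T cells had 250.3 ± 56.7, 225 ± 44.7 and 207 ± 34.2. Library 1 held the lowest value of each T cell class (168 to 186 CPM) and the highest of B cells and macrophages. Bbc3 (ENSMUSG00000002083, chr7:16308393-16318205, plus strand), a p53 target, was near 6 CPM in all lymphocytes (5.29 to 6.10) and at 47.6, 23.8 and 53.6 CPM in macrophages, on 25 UMIs. Pmaip1, another p53 and stress target, was at 55.2, 42.3 and 44.0 CPM in Treg cells and 47.6, 33.2 and 32.1 in CD4+ T cells. CD8+ T cells had 32.3, 16.3 and 18.4 CPM of it and B cells 15.0, 12.6 and 13.7, so that within each library the order was Treg, CD4+ T, CD8+ T, B.

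**Figure D1:**
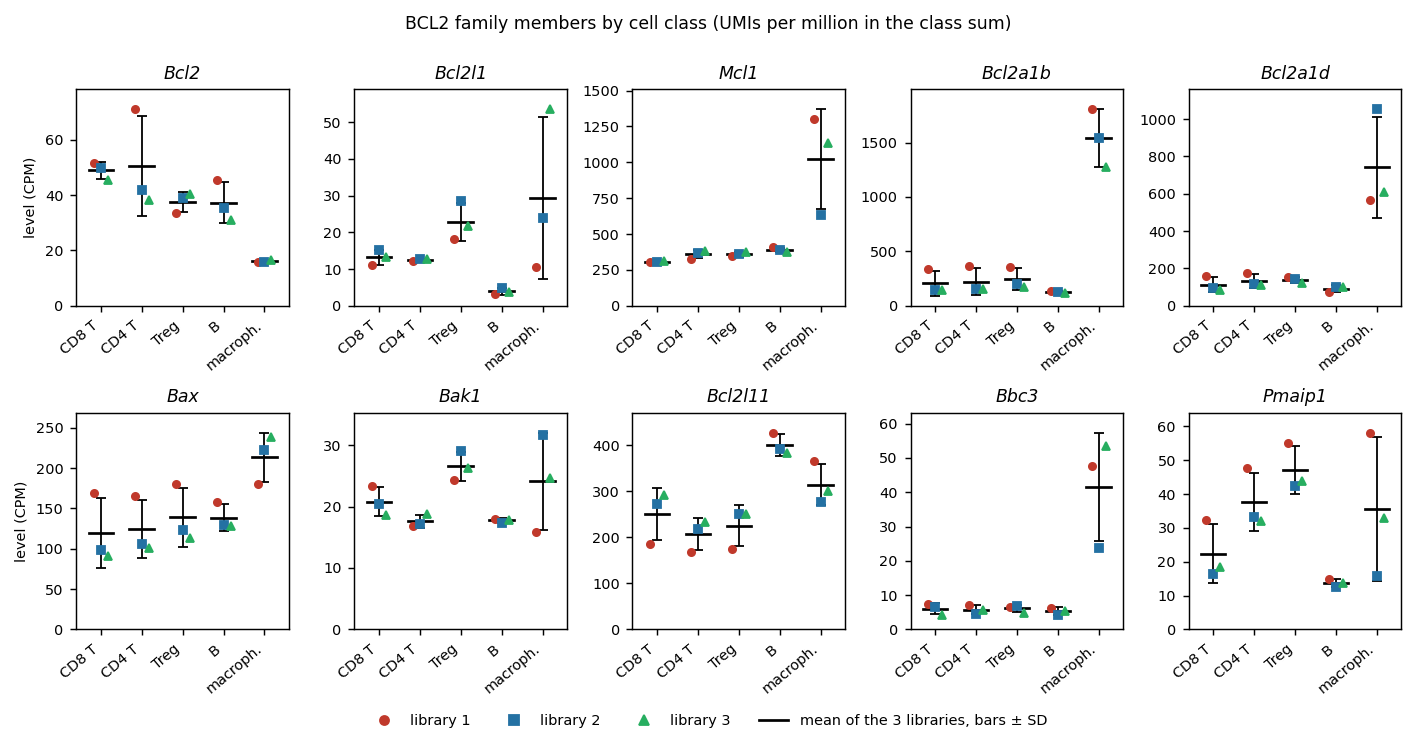
Level of each member in CPM (y axis, linear, from 0) in the 5 cell classes (x axis). Points are the 3 libraries, and bars are the mean ± SD over them. Macrophages stand above all lymphocytes for Mcl1, Bcl2a1b, Bcl2a1d and Bbc3 and below them for Bcl2, and B cells are highest for Bcl2l11 and lowest for Bcl2l1 and Pmaip1.

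Helper and cytotoxic T cells were told apart by 1 member. Pmaip1 was lower in CD8+ than in CD4+ T cells, by a log2 fold change of -0.70 (SE 0.12, edgeR adjusted p = 0.0015), and it was lower in all 3 libraries. Of all 12136 genes tested, 10.4% were called in this comparison, so 1 of 10 members is close to the background. Bak1 (0.31, adjusted p = 0.093) and Bcl2l11 (0.37, adjusted p = 0.20) did not pass. Without library 2 or library 3 the Pmaip1 difference was -0.59 or -0.69 and no longer passed, and without library 1 there were 3 calls, Bcl2l11 among them at 0.41.

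Against CD4+ T cells, Treg cells had more Bcl2l1 (0.79, SE 0.15, adjusted p = 0.0061) and more Bak1 (0.51, SE 0.11, adjusted p = 0.013), both in 3 of 3 libraries. These were 2 of 10 members, against 5.72% of genes called. Bcl2 did not pass (-0.38, adjusted p = 0.18), nor did Pmaip1 (0.27, adjusted p = 0.25). Neither call passed without library 2 (0.62 and 0.43) or without library 3 (0.86 and 0.60). Treg cells were also deeper in libraries 2 and 3 (median 10106 and 9166.5 UMIs, CD4+ T cells 6423 and 5520) and held more cells marked as likely doublets (18.6 to 20.1% against 8.6 to 11.7%), whose part in the result was not tested beyond their removal, after which both calls stood.

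B cells differed from T cells in a BH3-only gene and a survival gene that moved opposite ways. Bcl2l11 was higher in B cells (0.96, SE 0.13, adjusted p = 1.4e-05) and Bcl2l1 lower (-1.86, SE 0.15, adjusted p = 5.6e-08), against the mean of the 3 T cell classes. Pmaip1 (-1.16, SE 0.11, adjusted p = 2.8e-07) and Bcl2a1b (-0.57, SE 0.15, adjusted p = 0.0054) were lower too, and Bax was slightly higher (0.28, SE 0.11, adjusted p = 0.042). Together these were 5 of 10 members, beside a background of 56.9%, so the members were called no more often than genes at large. In cells thinned to 2000 UMIs, 51.0 ± 2.64% of B cells and 32.0 ± 4.17% of T cells had a Bcl2l11 UMI, higher in 3 of 3 libraries (exact sign-flip p = 0.25, two-sided, the smallest possible with 3 libraries). Bax did not pass without library 2 (0.23) or library 3 (0.19). Without the cells that held a UMI of another lineage all 5 calls stood, and with likely doublets removed only Bax did not pass (0.28, adjusted p = 0.055).

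Macrophages differed from T cells in 8 of the 10 members. Bcl2a1b (2.87, SE 0.15, adjusted p = 5.6e-10), Bcl2a1d (2.51, SE 0.20, adjusted p = 7.9e-08), Mcl1 (1.60, SE 0.15, adjusted p = 5.0e-07) and Bbc3 (2.90, SE 0.40, adjusted p = 3.2e-05) were higher than in T cells in every library. Bax (0.80, SE 0.17, adjusted p = 0.0017), Bcl2l1 (1.06, SE 0.38, adjusted p = 0.039) and Bcl2l11 (0.50, SE 0.18, adjusted p = 0.037) were higher by less, and Bcl2 was lower (-1.49, SE 0.48, adjusted p = 0.025). This made 7 members higher and 1 lower, where 15.0% of genes were called higher and 20.8% lower. The median over the members was 0.93 and that of all genes tested -0.53. Scaling moved the latter: it was -0.40 with RLE factors and -0.22 in DESeq2, which also turned the split of all calls from 1821 higher and 2524 lower to 2201 higher and 1791 lower. Set against that median, Bcl2 was at -0.96 by the main fit and at -0.95 and -1.12 by the other two, and Bcl2a1b at 3.40, 3.40 and 3.23.

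Against B cells, 7 of 10 members were higher in macrophages and none was called lower (background 15.4% higher and 20.5% lower). The largest were Bcl2a1b (3.43), Bbc3 (2.97), Bcl2l1 (2.92) and Bcl2a1d (2.84), followed by Pmaip1 (1.32), Mcl1 (1.28) and Bax (0.52, SE 0.19, adjusted p = 0.040). Bcl2 (-1.30, adjusted p = 0.055) and Bcl2l11 (-0.46, adjusted p = 0.089) did not pass. The median of all genes was -0.56 here, against -0.40 with RLE factors and -0.16 in DESeq2, where 2366 genes were higher and 1629 lower in place of 1870 and 2484. Bcl2l11 changed side of that median with the scaling, from 0.10 above it in the main fit to -0.13 in DESeq2.

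These macrophage values rest on 68 cells and 558022 UMIs. Leaving out library 3 took Bcl2l1 against T cells to 0.07 (1.23 without library 2), and leaving out library 1 took Bcl2l11 to 0.17 (0.67 without library 3), none of which passed. Without library 2 or library 3, Bcl2 (-1.49 or -1.58) no longer passed, nor did Bax without library 3 (0.52). Against B cells, Bcl2l1 fell to 1.91 without library 3 and Pmaip1 to 0.92 without library 1 (1.39 without library 3), none of them then passing, and Bax at 0.48 or 0.32 without library 2 or 3 did not pass either. The 8 genes of the dissociation response (Fos, Fosb, Jun, Junb, Egr1, Hspa1a, Hspa1b and Dnajb1) summed to 3975, 880 and 6490 CPM in macrophages, where Mcl1 was at 1300, 634 and 1137, so that library 2 was lowest in both and the highest library was not the same. All 8 were called higher in macrophages than in T cells, with a median of 3.31, and their part in the Mcl1 difference was not tested.

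**Figure D2:**
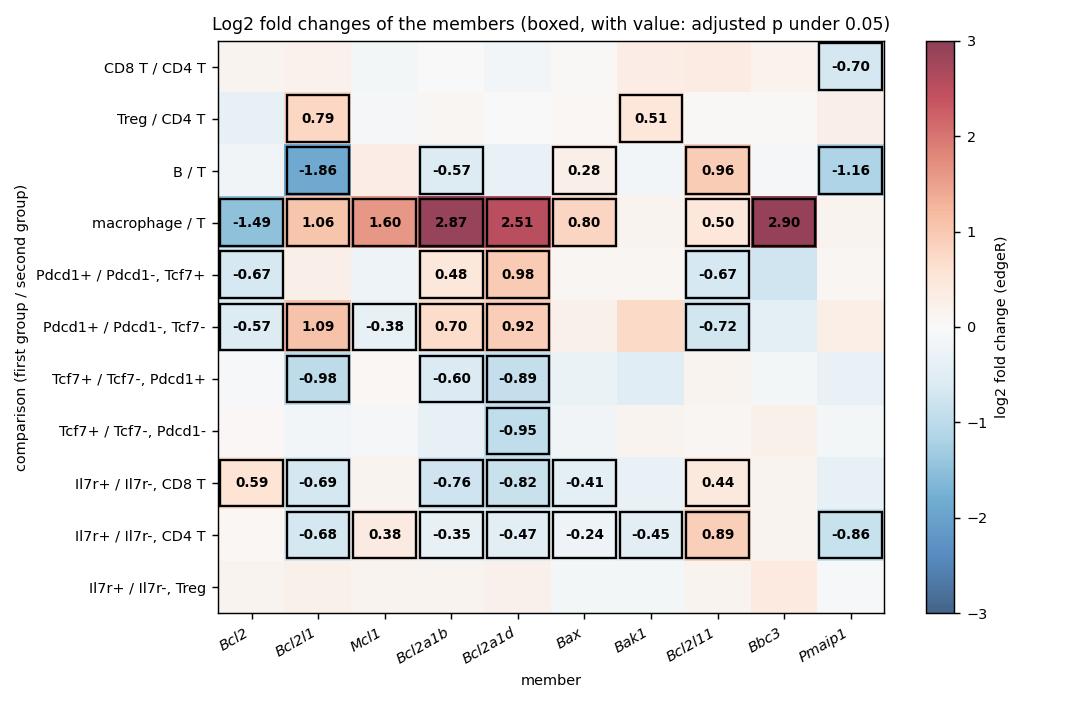
Log2 fold change of each member (x axis) in each comparison (y axis), coloured from blue (lower in the first group) to red (higher). Boxed cells with a value passed an adjusted p of 0.05. The A1 genes run opposite to Bcl2 and Bcl2l11 in the Pdcd1 and Il7r rows of CD8+ T cells, and no member passed in the Il7r row of Treg cells.

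CD8+ T cells were then split by whether a UMI of Pdcd1, the inhibitory receptor PD1, and of Tcf7, the factor of naive, memory and progenitor T cells, was present. The 4 states held 1205 Pdcd1-Tcf7+, 952 Pdcd1-Tcf7-, 507 Pdcd1+Tcf7+ and 594 Pdcd1+Tcf7- cells. The terminal markers (Havcr2, Entpd1, Lag3 and Id2) averaged 138, 298, 262 and 710 CPM in sum along that order.

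Bcl2 and Bcl2l11 were both lower in Pdcd1+ cells, while the A1 genes were higher. Bcl2 was at 56.5, 54.7 and 53.6 CPM in Pdcd1-Tcf7+ cells and at 47.8, 39.9 and 31.4 in Pdcd1+Tcf7+ cells, with no overlap. The levels without Tcf7 were 58.1, 54.0 and 50.5 CPM in Pdcd1- cells and 44.2, 42.2 and 36.0 in Pdcd1+ cells, again apart. The log2 fold changes were -0.67 (SE 0.12, adjusted p = 0.0025) in Tcf7+ cells and -0.57 (SE 0.13, adjusted p = 0.0064) in Tcf7- cells.

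Bcl2l11 was at 199, 323 and 349 CPM in Pdcd1-Tcf7+ cells and at 139.6, 237 and 233 in Pdcd1+Tcf7+ cells. It went from 198, 294 and 331 CPM in Pdcd1-Tcf7- cells to 203, 157 and 182 in Pdcd1+Tcf7- cells, where library 1 did not show the fall. The fits gave -0.67 (SE 0.17, adjusted p = 0.024) and -0.72 (SE 0.18, adjusted p = 0.011). In DESeq2 neither passed (-0.66, adjusted p = 0.16 in Tcf7+ and -0.69, adjusted p = 0.083 in Tcf7- cells).

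Bcl2a1d was at 92.0, 42.3 and 39.1 CPM in Pdcd1-Tcf7+ cells, 173, 82.5 and 81.2 in Pdcd1-Tcf7- cells and 143, 111 and 96.5 in Pdcd1+Tcf7+ cells. It reached 248, 243 and 166 CPM in Pdcd1+Tcf7- cells, the highest state in every library. Bcl2a1b also rose in that state, to 460, 267 and 241 CPM from 266.5, 86.8 and 95.8 in Pdcd1-Tcf7+ cells. With Pdcd1, Bcl2a1d was higher by 0.98 (SE 0.15, adjusted p = 0.00072) in Tcf7+ and by 0.92 (SE 0.14, adjusted p = 0.00035) in Tcf7- cells, and Bcl2a1b by 0.48 (SE 0.12, adjusted p = 0.017) and 0.70 (SE 0.11, adjusted p = 0.00050).

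In Tcf7- cells alone, Bcl2l1 and Mcl1 also passed. Bcl2l1 was at 17.7, 35.6 and 22.2 CPM in Pdcd1+Tcf7- cells against 10.3, 9.28 and 12.9 in Pdcd1-Tcf7- cells (1.09, SE 0.24, adjusted p = 0.0054), and Mcl1 was at 288, 295 and 268 CPM against 365, 322 and 321 (-0.38, SE 0.09, adjusted p = 0.0092). In neither gene did the groups overlap. In Tcf7+ cells Bcl2l1 was at 0.26 (adjusted p = 0.68) and Mcl1 at -0.21 (adjusted p = 0.20). Bak1 in Tcf7- cells, at 0.73, did not pass (adjusted p = 0.067), and Bax, Bbc3 and Pmaip1 passed in neither group. Called members were 4 of 10 in Tcf7+ cells, beside 6.90% of 9198 genes. In Tcf7- cells 3 of 10 were higher and 3 lower, beside 5.90% and 6.07% of genes.

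The difference between the Tcf7+ and the Tcf7- result was tested directly, and edgeR called 0 members and 0 genes. At an unadjusted p under 0.05 there were 1 member (Bcl2l1, -0.83, adjusted p = 0.88) and 486 genes, and DESeq2 called 0 members and 2 genes. The Pdcd1 differences of Bcl2l1 and Mcl1 are therefore not shown to depend on Tcf7.

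By Tcf7, 3 members passed with Pdcd1 and 1 without it. Bcl2a1d was lower in Tcf7+ cells both with Pdcd1 (-0.89, SE 0.14, adjusted p = 0.0020) and without it (-0.95, SE 0.15, adjusted p = 0.0044). With Pdcd1, Bcl2a1b (-0.60, SE 0.11, adjusted p = 0.0084) and Bcl2l1 (-0.98, SE 0.24, adjusted p = 0.038) were lower as well, though Bcl2l1 did not pass in DESeq2 (-0.99, adjusted p = 0.14) or with doublets removed (-0.71, adjusted p = 0.19). That was 3 of 10 members beside 2.73% of genes with Pdcd1, and 1 of 10 beside 0.315% without it. Bcl2a1b without Pdcd1 did not pass (-0.37, adjusted p = 0.43), and Bcl2 passed in neither.

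Cells with a Pdcd1 UMI were deeper and more often marked as doublets. The median depth was 7736, 10250.0 and 7598 UMIs in Pdcd1+Tcf7+ cells and 5426.5, 7591 and 6646 in Pdcd1-Tcf7+ cells, and 13.9 to 22.9% of the former were marked as likely doublets against 7.6 to 9.0% of the latter. When every cell was thinned to 2000 UMIs before the splits, a step added after the data had been examined, Bcl2 in Tcf7+ cells turned from -0.67 to 0.26 and Bcl2a1b there went to 0.11, while Bcl2a1d stayed at 1.1, none of them passing. In Tcf7- cells, Bcl2 (-0.22, adjusted p = 0.69), Bcl2l1 (0.65, adjusted p = 0.46) and Mcl1 (-0.31, adjusted p = 0.062) did not pass either. By Tcf7 in Pdcd1+ cells, Bcl2l1 turned from -0.98 to 0.18, and neither Bcl2a1d (-0.46, adjusted p = 0.72) nor Bcl2a1b (-0.60, adjusted p = 0.43) passed. In the original states read at 2000 UMIs a cell, 7.71 ± 1.07% of Pdcd1+Tcf7+ and 10.4 ± 0.665% of Pdcd1-Tcf7+ cells had a Bcl2 UMI, lower in 3 of 3 libraries (exact sign-flip p = 0.25, the smallest possible), but at 1000 UMIs a cell the difference turned from -2.65 to 0.65 percentage points. For Bcl2a1d the shares were 15.3 ± 0.386% and 5.67 ± 2.41%, and a transcript foreign to T cells, Cd79b, was seen in 4.05% of CD8+ T cells at the same depth, against 55.1% of B cells.

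Several of these state calls did not pass once 1 library was left out. Fewer genes passed at large without library 2 or 3 as well. For Pdcd1 in Tcf7+ cells, 635 genes were called with all libraries. The number was 963 without library 1, 177 without library 2 and 76 without library 3. Without library 3, none of the 4 calls in Tcf7+ cells passed (Bcl2 -0.51, Bcl2l11 -0.62, Bcl2a1b 0.44, Bcl2a1d 0.89), and without library 2 only Bcl2a1d did (Bcl2 -0.67, Bcl2l11 -0.68, Bcl2a1b 0.35). In Tcf7- cells the A1 calls stood without any one library, but Bcl2 (-0.56 or -0.53), Bcl2l11 (-0.50 or -0.56) and Mcl1 (-0.39 or -0.37) did not pass without library 2 or library 3, and Bcl2l1 fell to 0.67 without library 2. By Tcf7, Bcl2a1d in Pdcd1- cells did not pass without library 2 (-0.94) or 3 (-0.92), and in Pdcd1+ cells without library 2 (-0.76). Bcl2a1b (-0.57 or -0.59) did not pass without library 2 or 3, nor did Bcl2l1 without any of the libraries (-0.92, -0.97 and -1.03).

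**Figure D3:**
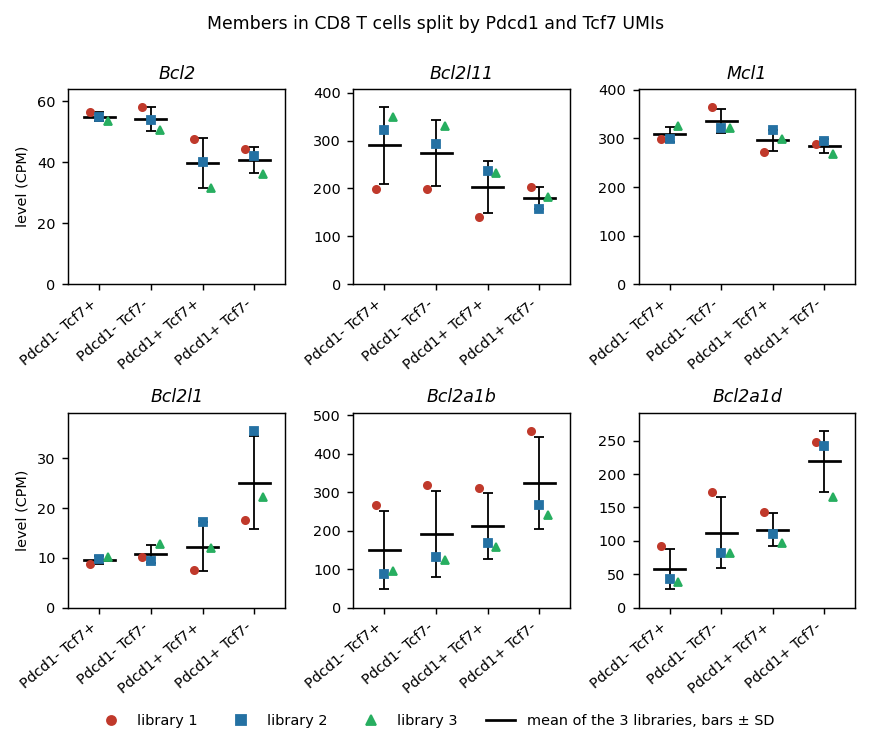
Level in CPM (y axis, linear, from 0) of 6 members in CD8+ T cells split by Pdcd1 and Tcf7 UMIs (x axis). Points are the 3 libraries, and bars are the mean ± SD over them. Bcl2 and Bcl2l11 are lower on the right, in Pdcd1+ cells, and Bcl2a1b, Bcl2a1d and Bcl2l1 are highest in Pdcd1+Tcf7- cells.

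Each T cell class was also split by whether a cell had an Il7r UMI, to set Bcl2 beside the receptor of the cytokine that maintains it. In CD8+ T cells Bcl2 was at 60.6, 58.3 and 53.1 CPM with Il7r and at 45.0, 39.6 and 36.3 without, higher in 3 of 3 libraries and with no overlap (0.59, SE 0.17, adjusted p = 0.030). In CD4+ T cells the levels were 72.6, 43.3 and 36.8 CPM with Il7r and 69.8, 40.1 and 40.7 without (0.09, SE 0.16, adjusted p = 0.79). In Treg cells they were 33.2, 42.9 and 40.7 against 33.7, 33.6 and 39.9 (0.12, SE 0.19, adjusted p = 0.87). Bcl2 thus passed in CD8+ T cells and not in the others, but the differences between classes did not pass either (CD8+ minus CD4+ T cells 0.50, SE 0.23, adjusted p = 0.52, and CD8+ T minus Treg cells 0.47, SE 0.25, adjusted p = 0.55).

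Bcl2l11 was the member that Il7r separated most in CD4+ T cells. It was at 234, 256 and 269 CPM with Il7r and 106, 163 and 174 without, with no overlap (0.89, SE 0.09, adjusted p = 3.0e-06). The same direction held in CD8+ T cells, at 222, 308 and 315 against 159, 230.4 and 265 CPM (0.44, SE 0.09, adjusted p = 0.0039). Mcl1 was higher in Il7r+ CD4+ T cells, at 357, 399 and 409 CPM against 302, 316 and 341 (0.38, SE 0.06, adjusted p = 0.00028).

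The remaining calls were all lower with Il7r. In CD8+ T cells Bcl2a1b was at 239.8, 108 and 100.3 CPM with Il7r and 407, 183 and 189 without (-0.76, SE 0.09, adjusted p = 3.9e-05). Bcl2a1d (-0.82, SE 0.10, adjusted p = 6.9e-05), Bcl2l1 (-0.69, SE 0.17, adjusted p = 0.015) and Bax (-0.41, SE 0.08, adjusted p = 0.0021) were lower in 3 of 3 libraries as well. In CD4+ T cells Pmaip1 was at 34.5, 24.5 and 22.3 CPM with Il7r and at 60, 45.7 and 48.8 without (-0.86, SE 0.11, adjusted p = 3.1e-05). Bcl2l1 (-0.68), Bcl2a1d (-0.47), Bak1 (-0.45), Bcl2a1b (-0.35) and Bax (-0.24) were lower there too, with adjusted p between 0.0029 and 0.036. In all, 6 of 10 members were called in CD8+ T cells beside 9.29% of 11011 genes, and 8 of 10 in CD4+ T cells beside 13.6%.

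In Treg cells edgeR called 0 of 10 members beside 1.31% of genes, and DESeq2 called 0 members. At an unadjusted p under 0.05 (edgeR) there were 0 members and 1486 of 11011 genes. The A1 genes of Treg cells leaned the other way: Bcl2a1d was at 175, 152 and 127 CPM with Il7r and 128, 127 and 118 without (0.22, SE 0.11, adjusted p = 0.38). In comparisons of the Il7r difference between classes, added after the data had been examined, CD8+ T cells differed from Treg cells in Bcl2a1b (-0.89, SE 0.13, adjusted p = 0.0022) and Bcl2a1d (-1.04, SE 0.15, adjusted p = 0.0022), 2 of 10 members beside 0.854% of genes. Both of these calls belong to the A1 pair. CD4+ T cells differed from Treg cells in Bcl2l11 (0.76, SE 0.13, adjusted p = 0.011), Pmaip1 (-0.82, SE 0.17, adjusted p = 0.026) and Bcl2a1d (-0.69, SE 0.14, adjusted p = 0.030), 3 of 10 beside 1.14%. Between CD8+ and CD4+ T cells edgeR called 0 members beside 0.663% of genes, and DESeq2 called 0 members. At an unadjusted p under 0.05 (edgeR) there were 6 of 10 members and 1011 of 11011 genes. Il7r+ Treg cells were deeper (median 5187, 11397 and 10729.5 UMIs against 4517, 8915 and 7968), and their B cell markers summed to 2576, 1507 and 672 CPM against 481, 1103 and 688. With every cell thinned to 2000 UMIs, Bcl2a1d in CD8+ T minus Treg cells did not pass (-0.85, adjusted p = 0.14), and without cells holding a UMI of another lineage Bcl2a1d in CD4+ T minus Treg cells did not (-0.80, adjusted p = 0.059). The other called differences from Treg cells passed under both settings.

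**Figure D4:**
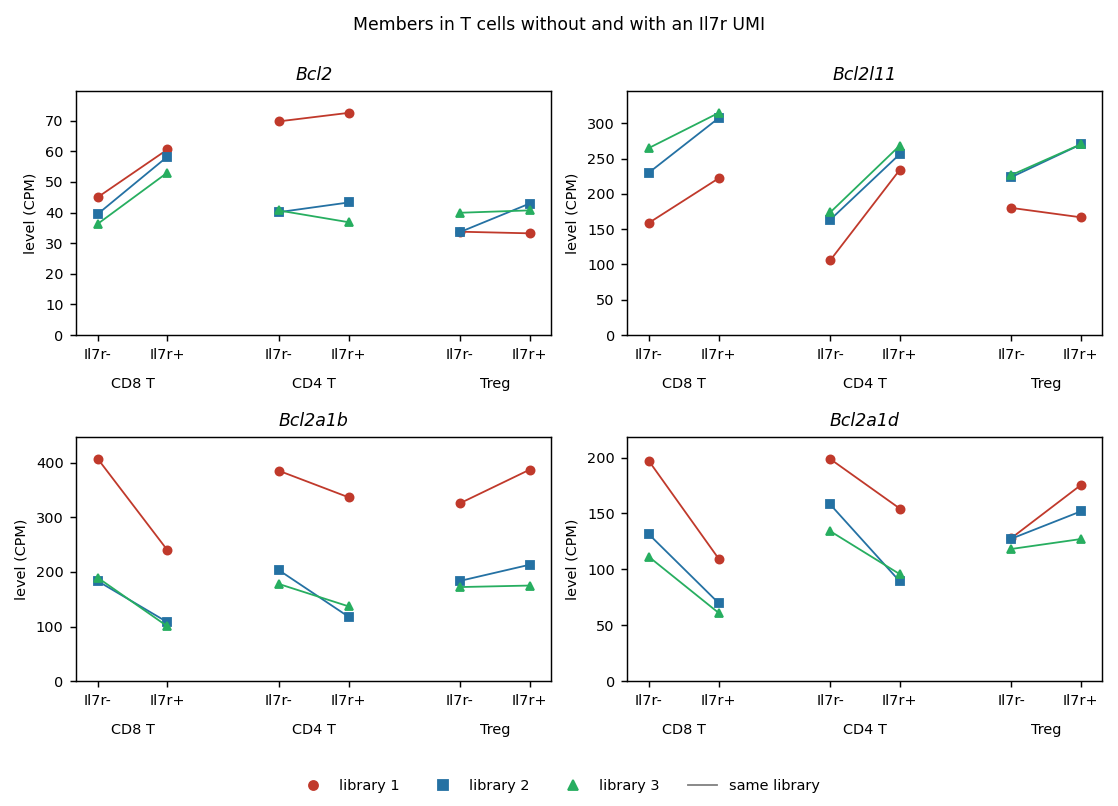
Level in CPM (y axis, linear, from 0) of 4 members in T cells without and with an Il7r UMI (x axis), by class. Each line joins the values of 1 library. Bcl2 rises with Il7r in all 3 libraries of CD8+ T cells, Bcl2l11 in all 3 of CD8+ and CD4+ T cells, and Bcl2a1b and Bcl2a1d are lower with Il7r in both of those classes and higher in Treg cells.

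Depth was close between the 2 sides of the split in CD8+ T cells (median 5266, 7832 and 6624.5 UMIs with Il7r, 5479.5, 7483 and 6252 without). Of the CD8+ calls, only those of the A1 genes stood without library 2 or library 3 alike. Bcl2 was then at 0.55 or 0.57, Bcl2l11 at 0.40 or 0.50 and Bcl2l1 at -0.71 or -0.54, and Bax at -0.40 without library 2. Of the CD4+ calls, Bcl2l11, Mcl1 and Pmaip1 stood, while Bcl2a1b (-0.20 or -0.38), Bcl2a1d (-0.34 or -0.50), Bcl2l1 (-0.62 or -0.65), Bak1 (-0.30 or -0.56) and Bax (-0.23 or -0.26) did not pass without library 2 or 3. Of the differences from Treg cells, none stood without library 3 (Bcl2a1b -0.95 and Bcl2a1d -1.17 for CD8+, Bcl2l11 0.89, Pmaip1 -0.71 and Bcl2a1d -0.84 for CD4+ T cells), and without library 2 only Bcl2a1b did (Bcl2a1d -1.04 for CD8+, Bcl2l11 0.89, Pmaip1 -0.82 and Bcl2a1d -0.57 for CD4+ T cells).

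In the summed levels of the CD8+ T cell states, the Il7r difference of Bcl2 was seen in Pdcd1- cells. Shares of thinned cells, given below, followed this only in part. In Pdcd1-Tcf7+ cells Bcl2 was at 65.7, 62.8 and 65.0 CPM with Il7r and 44.7, 39.7 and 32.1 without, and in Pdcd1-Tcf7- cells at 78.4, 69.4 and 53.3 against 40.5, 35.5 and 47.1. In Pdcd1+Tcf7+ cells the levels overlapped, at 46.2, 43.7 and 37.9 against 49.3, 36.4 and 24.6 CPM. In Pdcd1+Tcf7- cells each library was lower with Il7r, at 39.6, 34.1 and 29.7 against 45.1, 46.9 and 39.2 CPM, on 7, 23 and 20 Bcl2 UMIs on the Il7r+ side.

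Averaged over the 4 states, Bcl2 was higher with Il7r by 0.35 (SE 0.10, adjusted p = 0.018). Bcl2a1b (-0.60, adjusted p = 2.2e-06), Bcl2a1d (-0.52, adjusted p = 0.00080) and Bax (-0.36, adjusted p = 0.00061) were lower, and Bcl2l11 did not pass (0.27, adjusted p = 0.088). These were 4 of 9 members tested, Bbc3 being too low, beside 9.96% of 8496 genes. Without library 2 or 3, Bcl2 (0.33 or 0.37) did not pass, nor did Bax without library 2 (-0.33). For the difference between Pdcd1- and Pdcd1+ cells, a comparison added after the data had been examined, edgeR called 0 members, and Bcl2 was at 0.81 (SE 0.20, adjusted p = 0.33). At an unadjusted p under 0.05 (edgeR) there were 2 of 9 members and 476 of 8496 genes. By adjusted p, edgeR called 0.0118% of genes, and DESeq2 called 0 members.

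**Figure D5:**
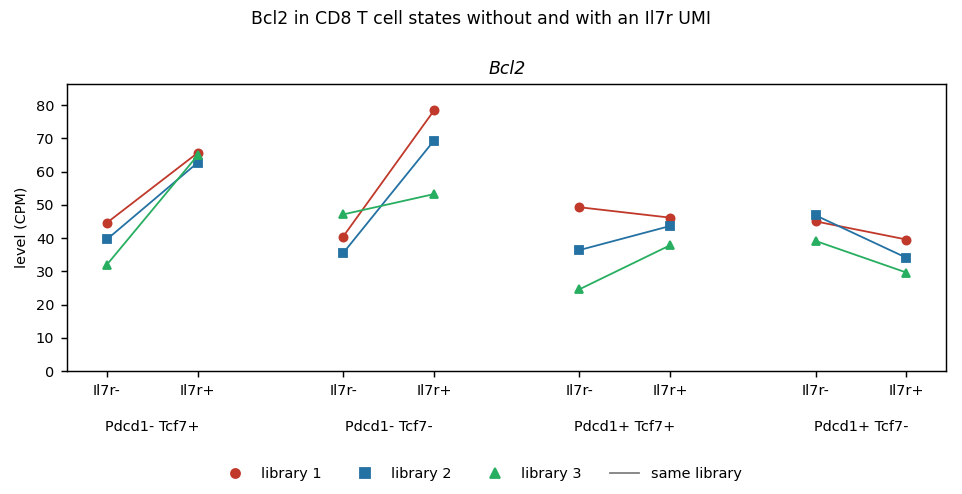
Level of Bcl2 in CPM (y axis, linear, from 0) in CD8+ T cells without and with an Il7r UMI (x axis), in each Pdcd1 and Tcf7 state. Each line joins the values of 1 library. All 6 lines rise in the Pdcd1- states, and all 3 fall in Pdcd1+Tcf7- cells, where the Il7r+ values rest on 7 to 23 UMIs.

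Cell by cell the relation of Bcl2 to Il7r was weak. Across cells thinned to 2000 UMIs, Spearman's rho averaged 0.056 in CD8+ T cells (0.047 to 0.066 over the 3 libraries), 0.029 in CD4+ T cells (-0.018 to 0.064) and 0.029 in Treg cells (-0.031 to 0.074). Cells of a library are not replicates, so rho is a description only. In CD8+ T cells a Bcl2 UMI was seen in 15.4, 10.7 and 10.3% of thinned cells with Il7r and in 10.1, 7.52 and 7.98% of those without. By state, these sparse shares followed the summed levels only in part. Every library was higher with Il7r in Pdcd1-Tcf7+ cells. In Pdcd1-Tcf7- cells the shares were 23.5, 6.73 and 6.04% with Il7r and 10.2, 8.54 and 9.60% without. In Pdcd1+Tcf7+ cells they were 5.26, 11.4 and 9.84% against 9.76, 5.34 and 6.47%. Those of Pdcd1+Tcf7- cells were 5.88, 10.0 and 6.98% against 11.9, 7.32 and 5.83%. Thinning also moved cells between the Il7r groups.

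Between B and T cells, where 56.9% of all genes were called, 6 of 11 further family members passed, a share near that background: the BH3-only genes Bmf (2.86) and Bid (2.05) were higher in B cells with Bnip3 (0.73) and Bcl2l12, and Bik (-1.92) and Bnip3l (-1.16) were lower. Of 9 death receptor genes, 5 passed and all were lower in B cells, among them Fasl (-4.11), Tnfrsf1a (-3.0) and Fas (-1.42). Apaf1 (-1.35), the scaffold of the apoptosome, was lower and Dffa (1.00) higher. Of 16 genes upstream of the family, 4 were higher, led by Myc (2.11) and Rel (1.85), and 8 lower, among them Il2rb (-3.78), Il7r (-3.38) and Stat5a (-2.27).

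In macrophages, where 15.0% of all genes were called higher and 20.8% lower than in T cells, 2 of 11 further family members passed. Bcl2a1a, the third A1 copy, was at 539, 816 and 429 CPM against 1.4 to 18.7 in T cells (6.37), and Bnip3l was lower (-1.71). Of the death receptor genes, Tnfrsf1a (3.0) and Cflar (2.48), an inhibitor of caspase-8, were higher, and Fasl had no UMI, which puts it at least 6.21-fold lower than the T cell mean of 33.4 CPM (limit of 3 counts over the 68 cells). Htra2 (1.73), a mitochondrial protease, was higher. Upstream, Il2rb (-5.38), Stat5b (-3.40) and Foxo1 (-3.08) were among 6 lower and Il15ra (1.91) among 3 higher.

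In the CD8 states and the Il7r splits, other pathway genes are read beside the share of all genes called. With Il7r, 4 of 16 upstream genes (Il7r, fixed by the split, among them) and 1 of 9 death receptor genes passed in CD8+ T cells (background 9.29%). In CD4+ T cells 6 of 16, again with Il7r, and 0 of 9 passed (13.6%). By Pdcd1, 3 of 16 and 0 of 8 passed with Tcf7 (6.90%). Without Tcf7, 5 of 16 and 1 of 8 passed (5.90% higher and 6.07% lower). Apaf1 was lower with Il7r in CD8+ (-0.61) and CD4+ T cells (-0.42). Birc3, of the inhibitor of apoptosis family, was higher with Il7r in both (0.38 and 0.40). None of the 5 to 9 other family members tested passed in any comparison of states or of Il7r. At most 13.6% of all genes were called there, so 0 calls in so short a list is near the background. Upstream, Txnip, a FOXO target and brake on glucose uptake, was higher with Il7r in CD8+ (0.40) and CD4+ T cells (0.60) and lower in Pdcd1+ cells (-0.68 and -0.50), and Il7r itself was lower in Pdcd1+ cells (-0.93 with Tcf7, -1.25 without). Stat5b, a messenger of IL-7, was higher with Il7r in CD8+ (0.40) and CD4+ T cells (0.42). Fasl was lower in Tcf7+ cells (-1.73 with Pdcd1, -1.16 without).

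Among T cell classes, 2 of 16 upstream and 3 of 9 death receptor genes passed between CD8+ and CD4+ T cells, beside 10.4% of all genes. Between Treg and CD4+ T cells these were 4 of 16 and 1 of 9, with 1 of 11 other family members, beside 5.72%. CD8+ T cells had more Il15ra (1.23), Il2rb (0.89), Tnfrsf1a (0.82) and Fas (0.47) than CD4+ T cells and less Cflar (-0.47), with none of 11 other family members called. Treg cells had more Il2ra (2.05), Bid (0.77), Il2rb (0.73) and Myc (0.62) and less Fasl (-1.45) and Il7r (-1.10) than CD4+ T cells. Il2ra was also on the list of Treg markers, which is not reported here.

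Genes with patterns most like 4 of the members were sought by Pearson's r of log levels over 24 sums (8 classes in 3 libraries, library means removed, 10682 genes). The libraries and classes shared by these sums make r a description only. Bcl2 was most like Rictor (0.937) and Scml4 (0.924), and Bcl2l11 like Cnn3 (0.841) and Ncf1 (0.837). Mcl1 was most like Pla2g4a (0.974) and Acvrl1 (0.97), and Bcl2a1b like Slc35e4 (0.969) and Efhd2 (0.967) among 5 that also held its neighbour Bcl2a1d (0.965).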

How the data were processed

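The authors deposited raw UMI counts per gene and cell barcode of 3 libraries, made with Cell Ranger 6.0.1 on mm10 (per the labels and the study's methods). The islets had been digested with collagenase and dispersed before CD45+ cells were sorted, and islets of several mice were pooled per library. The methods place the libraries in 2 independent experiments without saying which library belongs to which. The labels do not name separate animals for each library beyond the replicate number. With the library as a block, p-values measure how class differences vary over these 3 libraries, not the spread of levels between them.

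Counts were summed per library and class (at least 10 cells) and tested with edgeR 4.0.16 (R 4.3.3): filterByExpr, TMM, quasi-likelihood, library as a block, adjusted p under 0.05 over all genes. DESeq2 1.42.0 served as an alternative. The library is a block because its classes come from the same pooled mice. Deviations of sums from the same library correlated (mean r 0.289 over 30 pairs, from 0.028 to 0.684). The mean r was -0.131 over 60 pairs of different libraries. Each class was centred on its mean over the 3 libraries, which by itself pulls that value below 0, so it is no separate evidence. Depth was 33851381, 74775394 and 80806452 UMIs a library, and 12 to 29 barcodes were shared between any 2 libraries. The 7.6% of cells with the highest share of simulated doublets among their neighbours were marked and kept, except where stated. Shares of cells were read after thinning each cell to 2000 UMIs. Of 10 members, 10 passed the low-count filter in every fit but that of Il7r within states (9). Some of the fits were also run on simulated counts, made without a library effect and with a fixed spread, and the outcome is not reported here.

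The text gives the 10 members in each comparison, and of 5 lists (61 genes) the called genes with the largest differences, up to 4 a list. Some items of these lists, and results that need them, are not reported here. The members, lists and comparisons were chosen with earlier results of these data known. Promoter sequences came from RefSeq GRCm38.p6, the assembly of mm10, and transcript sequences from GENCODE. No sequence is given for Pmaip1. Alternatives were the choice of test, scaling, low-count filter, cell filter (that of the study, with fewer than 6000 UMIs, 200 to 5000 genes, mitochondrial share below 5% and ribosomal share above it), doublet removal, gate, threshold of the splits, block, depth of thinning and each library left out. Poisson intervals and limits cover counting error only.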

Additional observations from a re-analysis of the deposited data

Results flagged for a closer look

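The A1 genes were lower with Il7r in CD8+ and CD4+ T cells, while in Treg cells every library was higher without either gene passing (Bcl2a1b 0.13, adjusted p = 0.59, and Bcl2a1d 0.22, adjusted p = 0.38, edgeR). Bcl2a1b was lower in Il7r+ than in Il7r- cells by 111 ± 49.7 CPM in CD8+ T cells and by 58.3 ± 23.7 in CD4+ T cells, in all 3 libraries each, and higher by 31.3 ± 29.4 in all 3 libraries of Treg cells. The class differences in the Il7r effect were -141.93 CPM (CD8+ T minus Treg) and -89.607 CPM (CD4+ T minus Treg). For Bcl2a1d, the effects were -66.3 ± 19.1 CPM in CD8+ T cells, -50.6 ± 16.2 in CD4+ T cells and 27 ± 19.4 in Treg cells. Every library of a class was again on the same side, and the class differences were -93.2702 and -77.6245 CPM. These CPM differences were flagged because all 3 libraries of one class lay opposite to all 3 of the other. The sameness of the libraries is thus the rule of choice and adds no support.

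Tests of the difference itself were added after the data had been examined. On the log2 scale they passed for 5 of these and related effects: Bcl2a1b (-0.89) and Bcl2a1d (-1.04) between CD8+ T and Treg cells, and Bcl2a1d (-0.69), Bcl2l11 (0.76) and Pmaip1 (-0.82) between CD4+ T and Treg cells. The difference of Bcl2a1b between CD4+ T and Treg cells did not pass (-0.49, adjusted p = 0.078, edgeR). It passed in DESeq2 (-0.50, adjusted p = 0.025), without the low-count filter (-0.50, adjusted p = 0.0022), without library 1 (-0.58, adjusted p = 0.030), with doublets removed (-0.65, adjusted p = 0.025), with the study's cell filter (-1.42, adjusted p = 0.00011) and with cells thinned to 2000 UMIs (-1.01, adjusted p = 0.00014). None of the 10 Il7r differences within Treg cells passed by itself.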

How the results depend on the processing

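Over 65 member differences, 730 alternative values were computed: 542 kept direction and call, 175 kept direction and lost the call, 8 gained one and 5 turned. The 65 were the differences called in the main fits and a few uncalled ones that the text names. A call could thus be gained by those few alone, and the gains and losses are not a balanced tally. The call was lost for 33 differences without library 2, 35 without library 3 and 3 without library 1, where fewer samples are fitted. Without the library block it was lost for 45, and the number of members called fell to 3 in B against T cells and to 0 in CD8+ against CD4+ T, Treg against CD4+ T, all Pdcd1 and Tcf7 comparisons, Il7r in CD8+ and CD4+ T cells and over states, and both Il7r differences from Treg cells. Fewer genes passed at large too. Without the block they were 40.1% in B against T cells, 3.25% in CD8+ against CD4+ T and 0.873% in Treg against CD4+ T. For Pdcd1 in Tcf7+ and Tcf7- cells they were 0.087% and 1.13%. For Tcf7 in Pdcd1+ and Pdcd1- cells they were 0.163% and 0.0326%. The study's cell filter left only the 18 macrophages of library 1. Under it, the members called were 0 (CD8+ against CD4+ T), 1 and 2 (Pdcd1 in Tcf7+ and Tcf7-), 0 (Tcf7 in Pdcd1+), 2 (Il7r in CD8+) and 1 (over states). The genes called there were 6.84% (CD8+ against CD4+ T), 7.39% and 9.99% (Pdcd1) and 0.792% (Tcf7 in Pdcd1+). In macrophages, Bcl2l1 (-0.17) and Bax (-0.17) against T cells and Bax against B cells (-0.55) turned. The macrophage arm is then 1 sample, assumed to vary like the other groups, from the library that already had the lowest macrophage Bcl2l1 and Bax (10.6 and 179.7 CPM). Cells thinned to 2000 UMIs before the splits, which also moves cells between groups, gave 2 and 3 (Pdcd1), 0 (Tcf7 in Pdcd1+), 2 and 5 (Il7r in CD8+ and CD4+), 1 (CD8+ T minus Treg) and 1 (over states), and turned Bcl2 by Pdcd1 in Tcf7+ cells (0.26) and Bcl2l1 by Tcf7 in Pdcd1+ cells (0.18). After thinning, 4.32% and 11% of genes were called for Pdcd1 in Tcf7+ and Tcf7- cells and 0.468% for Tcf7 in Pdcd1+ cells. Without the low-count filter, Il7r differences gave 2 (CD8+ minus CD4+ T), 5 (CD4+ T minus Treg) and 2 (Pdcd1- minus Pdcd1+), and doublet removal gave 5 (CD4+ T minus Treg). The cause was not tested for these. No share of all genes called is given here for the Il7r comparisons under these settings, so their counts are not set against the genes at large.

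Leaving out each library in turn gave these lowest and highest numbers of members called: 0 and 3 (CD8+ against CD4+ T), 0 and 2 (Treg against CD4+ T), 4 and 8 (macrophage against T), 4 and 7 (macrophage against B), 0 and 4 (Pdcd1 in Tcf7+), 3 and 6 (Pdcd1 in Tcf7-), 0 and 3 (Tcf7 in Pdcd1+), 0 and 2 (Tcf7 in Pdcd1-), 2 and 6 (Il7r in CD8+), 3 and 8 (Il7r in CD4+), 0 and 1 (CD8+ minus CD4+ T), 0 and 2 (CD8+ T minus Treg), 0 and 5 (CD4+ T minus Treg) and 2 and 4 (over states). With a library left out, the genes called at large ran from 3.43 to 12.6% (CD8+ against CD4+ T) and 1.01 to 8.95% (Treg against CD4+ T). For macrophages they ran from 25.3 to 31% (against T) and 24.7 to 29.4% (against B). The ranges were 0.859 to 10.1% and 4.01 to 13.9% for Pdcd1 in Tcf7+ and Tcf7- cells. For Tcf7 in Pdcd1+ and Pdcd1- cells they were 0.424 to 3.93% and 0.179 to 0.703%. Such shares are not given here for the Il7r comparisons, whose counts are therefore not read as a result about the members. The share difference of Bcl2 in Pdcd1+Tcf7+ cells turned to 0.65 points at 1000 UMIs. Without thinning, rho of Bcl2 and Il7r was 0.117 in CD8+ T and 0.102 in Treg cells.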

Other observations

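The balance of 2 members within a class set B cells and macrophages apart. Per library, the ratio of Bcl2l11 to Bcl2 UMIs was 9.38, 11.1 and 12.3 in B cells and 23.0, 17.5 and 18.3 in macrophages (on 9 Bcl2 UMIs in all), and 3.60, 5.47 and 6.44 in CD8+ T, 2.36, 5.20 and 6.09 in CD4+ T and 5.18, 6.42 and 6.22 in Treg cells. Among CD8+ T cells without Tcf7 it was 3.41, 5.44 and 6.56 in Pdcd1- and 4.60, 3.73 and 5.05 in Pdcd1+ cells, so the libraries did not go the same way. The ratio of Mcl1 to Bcl2l11 UMIs was 0.978 ± 0.0214 in B cells, the lowest mean of the 5 classes, and 3.21 ± 0.808 in macrophages. A ratio of UMIs of 2 genes says nothing of their relative amounts of protein, and only its differences between classes are read here.

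The ratio of Bcl2a1b to Bcl2a1d UMIs was higher in library 1 than in libraries 2 and 3 in each of the 5 classes: 2.1, 1.45 and 1.68 in CD8+ T cells, 2.04, 1.3 and 1.38 in CD4+ T cells, 2.35, 1.42 and 1.41 in Treg cells, 1.91, 1.24 and 1.16 in B cells and 3.20, 1.46 and 2.09 in macrophages. It differed more between libraries than between the lymphocyte classes of a library. This did not hold for the states of CD8+ T cells. In libraries 1, 2 and 3 the ratio was 2.898, 2.053 and 2.451 in Pdcd1-Tcf7+ cells, the highest state in each. In Pdcd1+Tcf7- cells it was 1.851, 1.099 and 1.451. Within each library these states lay further apart than either did between libraries. The difference in ratio between states was not tested.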
